A study of Homo sapiens with 4 samples.

Results

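Translation initiation factors are the proteins that bring the small ribosomal subunit, the initiator tRNA and an mRNA together at the start codon. eIF2 carries the initiator tRNA, eIF2B recharges it with GTP, and kinases that phosphorylate eIF2 turn that cycle down under stress. eIF3 is a large scaffold on the small subunit, and the eIF4 factors bind the cap, unwind the leader and bridge the mRNA to eIF3. The mRNAs of these factors were followed in 4 RNA libraries from Huh7 cells, a human liver cancer cell line, after RNA immunoprecipitation (IP) of RBM39, a protein known to bind RNA and to act in splicing.

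The members were selected on the symbol and the counts: rows of the table whose symbol is EIF, a digit from 1 to 6 and then only capital letters or digits, with at least 50 counts in each library. Of 56303 rows, 128 had such a symbol and 52 reached the count minimum. These were 49 protein-coding genes and 3 pseudogenes, with 15 symbols of the EIF2 kind, 12 of the EIF3 kind, 16 of the EIF4 kind and 9 of the EIF1, EIF5 and EIF6 kinds. The members were thus chosen by their count in every library, so their depth is not a result. Just inside the minimum were the pseudogenes EIF2S2P4, EIF4BP3 and EIF4BP6, with lowest counts of 52, 56 and 60. Just outside were EIF3C with 49 and EIF2S3L with 40. Of the 76 rows left out, 25 had no count in any library.

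The study held 2 Huh7 cultures, one with a control hairpin (shControl) and one transfected with a plasmid for a hairpin against RBM39 (shRBM39), both grown in medium with 10% fetal bovine serum, penicillin and streptomycin. Each gave 1 input library and 1 RBM39 IP library, so a group is 1 library. No IP with a control antibody is among them, so recovery through RBM39 and recovery without it cannot be told apart. The number of cells, clones or hairpins behind a culture is not given in the labels. Total counts ran from 20858382 to 22249581 for the inputs and from 41387762 to 45812488 for the IPs. RBM39 itself was counted 8701 times in the shControl input and 8053 times in the other, a log2 ratio of -0.13, so its mRNA was hardly lower. In the IPs it was counted 46798 and 91929 times, so its IP over input was higher in the culture labelled shRBM39 (log2 2.58 against 1.36), and directions below refer to that label. The 11 hepatocyte markers were above 1 CPM (counts per 1000000 of the TMM-scaled library) in every library, with summed levels from 5774 in the shRBM39 IP to 15111 in the shControl input, against summed levels of at most 16.9 for leukocyte, 8.68 for endothelial and 3.49 for stellate markers, with DCN at 0, and 108 to 232 for the cholangiocyte list. The part of these marker levels in the results was not tested.

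Many mRNAs of the translation machinery are known to begin with a C and a run of pyrimidines at the cap, the terminal oligopyrimidine start through which mTORC1 and LARP1 control their use. Because that start is a sequence feature the choice of members did not use, it was looked for first. A start was counted when the annotated first base was C and the next 4 bases were each C or T on the gene's strand. In the RefSeq starts on GRCh38.p14, 41 members were present with 56 starts, and 9 of the members had at least 1 such start (22.0%), against 1404 of 27305 genes in the table (5.14%). They were 3 of 12 EIF2, 4 of 7 EIF3 and 2 of 13 EIF4 members, and the EIF1, EIF5 and EIF6 members had none. The 27305 genes were not limited by expression, while members had at least 50 counts in each library. The shares are thus not of like sets, and their difference was not tested. The 9 are shown from 10 bases before the start to 20 bases from it, with the pyrimidine run at the start in capitals.
EIF2A (chr3:150546777-150546806, plus strand): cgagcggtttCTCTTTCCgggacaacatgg
EIF2D (chr1:206612446-206612475, minus strand): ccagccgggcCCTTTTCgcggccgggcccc
EIF2S3 (chrX:24054946-24054975, plus strand): gatttccttcCTCTTTTggcaacatggcgg
EIF3D (chr22:36529147-36529176, minus strand): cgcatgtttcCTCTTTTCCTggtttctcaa
EIF3F (chr11:7987327-7987356, plus strand): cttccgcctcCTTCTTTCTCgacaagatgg
EIF3K (chr19:38619178-38619207, plus strand): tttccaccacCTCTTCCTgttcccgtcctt
EIF3M (chr11:32583821-32583850, plus strand): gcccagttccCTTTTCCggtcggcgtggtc
EIF4A2 (chr3:186783567-186783596, plus strand): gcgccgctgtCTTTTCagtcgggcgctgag
EIF4B (chr12:53006446-53006475, plus strand): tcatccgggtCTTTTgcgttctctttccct

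The run at the annotated start was 5 bases long in EIF4B and 10 bases long in EIF3D and EIF3F. For contrast, 4 members with the highest or among the lowest IP recovery in shControl cells are shown over the same window. None of them has the start as defined, although EIF4A1 has a short stretch of C and T at it. The start of EIF3B in the RefSeq promoter table lies 741 bases inside the outer end of the gene, while the starts of the other members shown lie at the outer end. An annotated start is not a mapped cap, so these letters describe the annotation.
EIF4A1 (chr17:7572815-7572844, plus strand): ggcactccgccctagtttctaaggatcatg
EIF3B (chr7:2354817-2354846, plus strand): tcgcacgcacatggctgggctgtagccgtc
EIF5B (chr2:99337379-99337408, plus strand): ctgagaactcacaccatatgtgtcctgttc
EIF4EBP2 (chr10:70404135-70404164, plus strand): gccttcgcccgcttccggtcgtcgtcgtcg

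The first comparison asked how much of each mRNA was recovered with the RBM39 antibody relative to the starting RNA of shControl cells. Levels are CPM after TMM scaling, ratios are IP over input on the log2 scale, and brackets give 95% intervals of counting error, since there is no replicate. A member was listed as higher or lower when it differed by at least 2-fold and that interval excluded equality. The helicase mRNA EIF4A1 and the eIF3 subunit mRNA EIF3B were listed as higher, and EIF4EBP2, EIF4E3, EIF5B and EIF5A2 were listed as lower. These are 2 and 4 of the 52 members, while 7.70% of the 19210 features compared were listed as higher and 11.3% as lower. Among the 12957 features with at least 50 counts in each library, the depth of the members, the shares were 7.02% and 6.88%. The median log2 ratio of the members was 0.16, against -0.01 over all features and 0.05 over those as deep.

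With libraries given from here on as the shControl pair and then the shRBM39 pair, input before IP, EIF4A1, the RNA helicase of the cap complex (chromosome 17, 7572825 to 7579006), had 9143, 42472, 15541 and 41053 counts. That was 424, 939, 714 and 991 CPM, so both IPs were above both inputs. Recovery was 2.22 times the input with the control hairpin (log2 1.15, 1.11 to 1.18) and 1.39 times in the other culture (log2 0.47, 0.45 to 0.50). The feature overlaps the readthrough gene SENP3-EIF4A1 and 3 small nucleolar RNA genes in RefSeq, and its reads may be shared with them. Of the other members described most, EIF3B overlaps SNX8, EIF4E3 overlaps GPR27, EIF3A overlaps NANOS1 and SNORA19, and EIF4G1 overlaps SNORD66. EIF3B, an RNA-binding core subunit of eIF3 (chromosome 7, 2354086 to 2380745), had 6941, 29470, 9313 and 28686 counts, or 322, 652, 428 and 692 CPM. Again both IPs stood above both inputs, at 2.02 times the input with the control hairpin (log2 1.02, 0.98 to 1.06) and 1.62 times with the other.

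EIF4EBP2, a repressor that holds eIF4E until mTORC1 phosphorylates it (chromosome 10, 70404145 to 70428618), was the lowest member in shControl cells. Its counts were 4469, 2422, 2834 and 1947, or 207, 53.6, 130.2 and 47.0 CPM. Both IPs were below both inputs, by 3.87 times with the control hairpin (log2 -1.95, -2.02 to -1.88) and by 2.77 times with the other (log2 -1.47, -1.55 to -1.39). EIF4E3, an atypical relative of the cap-binding eIF4E, had 168, 138, 84 and 95 counts and was 2.55 times lower in the shControl IP (log2 -1.35, -1.69 to -1.02). EIF5A2, a paralog of EIF5A, had 318, 320, 160 and 210 counts and was 2.08 times lower (log2 -1.06, -1.29 to -0.83). EIF5B, the GTPase that joins the ribosomal subunits (chromosome 2, 99337389 to 99401326), had 3713 and 3131 counts in the shControl pair, or 172 and 69.2 CPM, and was 2.49 times lower (log2 -1.31, -1.38 to -1.25).

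The list in shControl cells depended on scaling for members near 2-fold. With libraries scaled to total counts EIF3I (1.01), EIF4A3 (1.05) and EIF6 (1.07) were also listed as higher, 5 in all, while EIF5A2 (-0.98) was not listed, so that 3 were lower. With upper-quartile scaling EIF3B (0.96) was not listed and EIF2AK2 (-1.02) was listed as lower, which gave 1 higher and 5 lower.

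**Figure D1:**
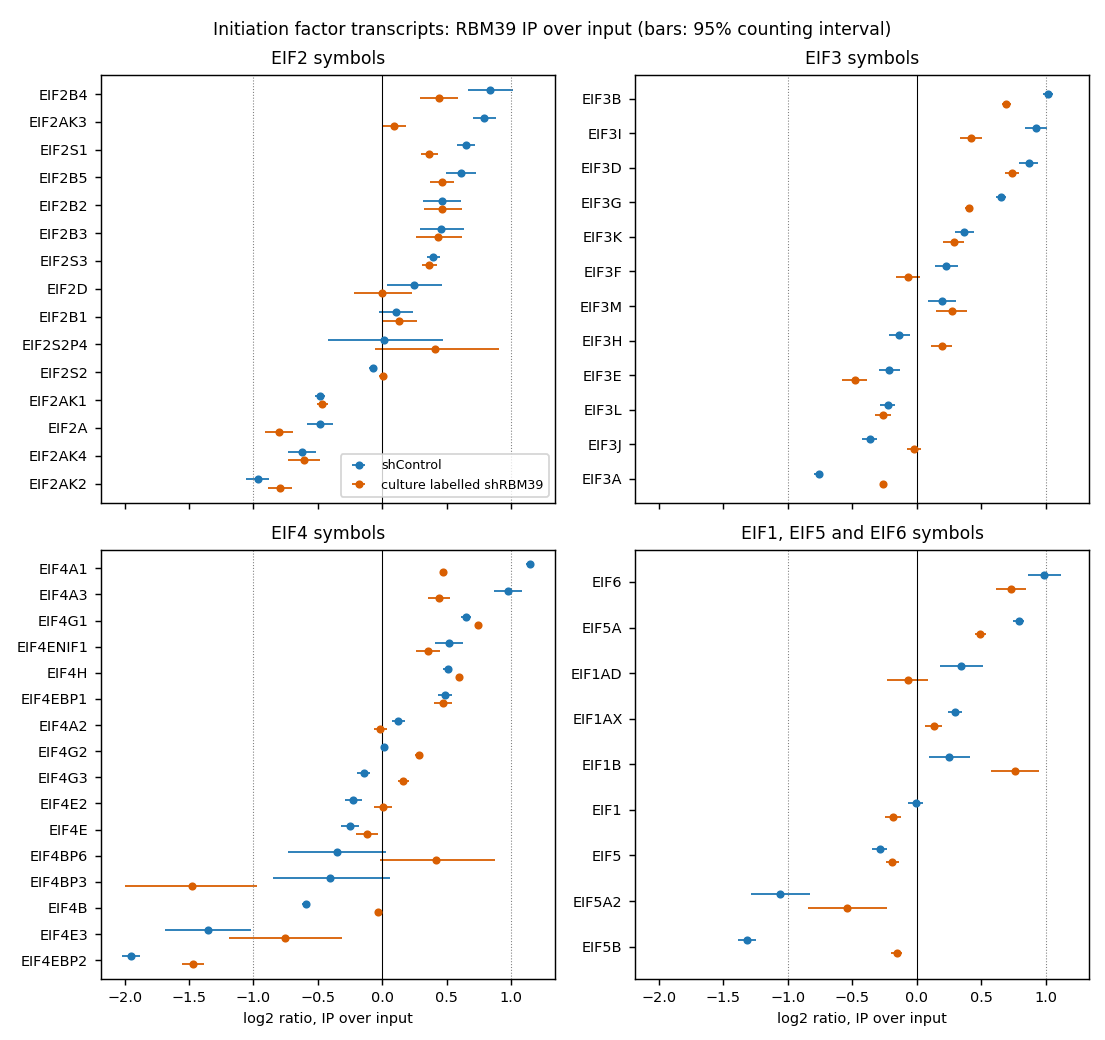
Log2 ratio of IP over input (horizontal axis) for the 52 members, in 4 panels by symbol, in shControl cells (blue) and the culture labelled shRBM39 (orange), with bars for the 95% counting interval and dotted lines at 2-fold. EIF4EBP2 stands low in both, at -1.95 and -1.47, and most members lie within 2-fold on either side of 0.

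In the shRBM39 culture 0 members were listed as higher and 2 as lower, EIF4EBP2 and the pseudogene EIF4BP3, where 5.29% of all features were listed as higher and 9.00% as lower. Among features as deep as the members the shares were 3.66% and 5.63%. The highest were EIF1B, EIF4G1 and EIF3D. EIF1B, a relative of the start codon factor eIF1, had 462, 1154, 308 and 994 counts, with its lowest level in the shRBM39 input. Its ratio in the shRBM39 cells was 0.76 (0.58 to 0.95), above the 0.25 of shControl cells. EIF4G1, the scaffold that links the cap complex to eIF3, stood at 0.75 (0.72 to 0.77), and EIF3D, an eIF3 subunit that can itself bind a cap, at 0.74 (0.69 to 0.80). EIF2A, a factor that can bind the initiator tRNA outside eIF2, was the lowest after those listed, at -0.80 (-0.91 to -0.70) on 1305, 1958, 1345 and 1466 counts. EIF4BP3 had 68, 108, 82 and 56 counts, and as a copy of EIF4B it may take reads from its parent gene.

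The only repeat of IP against input is that of the 2 cultures, which were therefore tested together with edgeR's quasi-likelihood test and culture as a term, with p adjusted by Benjamini-Hochberg over all 19210 features. The test has 1 residual degree of freedom and counts any true difference in IP recovery between the cultures as error. A difference in level between the cultures is taken up by the culture term. The spread it measures comes only from these 4 libraries, with the error of a feature estimated partly from the other features. Of the 52 members, 19 were higher in the IP at adjusted p under 0.05 and 9 lower, while 19.3% of all features were higher and 17.6% lower. Among features as deep as the members these shares were 25.6% and 20.7%. With libraries scaled to total counts 10 members were higher instead of 19, and 2850 of the 19210 features were higher instead of 3698. With DESeq2 14 members were higher and 9 lower, beside 13.5% and 10.9% of all features. DESeq2 gave no adjusted p for 2980 of the 19210 features and for 0 of the members. Features without one count as not called in these shares, so the shares are low for features that could be called. Without the filter on low counts 21 members were higher, with EIF2S3 and EIF3K added, and 8 lower, with EIF2AK1 lost. Over the features, 4628 were higher and 2797 lower without that filter, against 3698 and 3381 with it. The 9 that lost the call with total counts were EIF1B, EIF2AK3, EIF2B2, EIF2B3, EIF2S1, EIF3G, EIF4EBP1, EIF4ENIF1 and EIF4H.

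Within the EIF2 group the members are given by role. Of the 5 mRNAs of eIF2B, the exchange factor of eIF2, 4 rose in the IP by edgeR's test: EIF2B4 (log2 0.63, adjusted p = 0.00362), EIF2B5 (0.53, adjusted p = 0.00731), EIF2B2 (0.47, adjusted p = 0.0185) and EIF2B3 (0.45, adjusted p = 0.0292). EIF2B1 did not pass (0.12, adjusted p = 0.561). In that test 19.3% of all features were higher, and 25.6% of those as deep as the members. With DESeq2 2 of the 5 passed, beside 13.5% of all features, since EIF2B2 and EIF2B3 missed the threshold (adjusted p = 0.0821 and 0.124). The ratios of all 5 were above 0 in both cultures, from 0.10 to 0.84 in shControl cells and from 0.13 to 0.47 in the shRBM39 cells. Those of EIF2B1 had intervals that reached 0, -0.03 to 0.24 and -0.0045 to 0.27. In the same cultures 9551 and 9894 of the 19210 features were above 0. EIF2B4, the highest EIF2 member in shControl cells, had 336, 1260, 530 and 1366 counts, and EIF2B2, the highest in the shRBM39 cells, had 516, 1492, 512 and 1347.

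The kinases of eIF2 included 3 of 4 that were lower. By edgeR 17.6% of all features were lower, and 20.7% of those as deep as the members. EIF2AK2, the double-stranded RNA sensor PKR, fell (log2 -0.88, adjusted p = 0.000138), as did EIF2AK4, the amino acid sensor GCN2 (-0.62, adjusted p = 0.0024; counts 1275, 1735, 925 and 1155), and EIF2AK1, the heme-regulated kinase (-0.47, adjusted p = 0.0411; 0.0296 with DESeq2), in edgeR's test. EIF2AK1 also lost the call with total counts. EIF2AK2 had 1990, 2136, 1668 and 1830 counts, or 92.3, 47.2, 76.6 and 44.2 CPM, with both IPs below both inputs. EIF2AK3, the endoplasmic reticulum kinase PERK, rose by the same test (0.44, adjusted p = 0.046) but not with DESeq2 (adjusted p = 0.112). Its ratio was 0.79 (0.71 to 0.88) in shControl cells and 0.09, with an interval that reached 0, in the shRBM39 cells.

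Of the subunits of eIF2 itself, EIF2S1, the subunit that the kinases phosphorylate, rose (log2 0.51, adjusted p = 0.017 in edgeR's test). EIF2S3, the subunit that binds GTP and the initiator tRNA, had a fitted ratio of 0.38 (adjusted p = 0.0766; counts 4239, 11700, 3296 and 8070) and EIF2S2 one of -0.03 (adjusted p = 0.904). EIF2A fell (-0.64, adjusted p = 0.00213), and EIF2D, which delivers tRNA without GTP, did not pass (adjusted p = 0.605), nor did the pseudogene EIF2S2P4 (0.21). In all, 6 of 15 EIF2 members were higher and 4 lower by edgeR, and 3 and 4 by DESeq2. Over all features the shares were 19.3% and 17.6% by edgeR, and 13.5% and 10.9% by DESeq2. Among features as deep as the members the edgeR shares were 25.6% and 20.7%.

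The eIF3 subunits did not move as one. In edgeR's test 4 of 12 were higher, namely EIF3B (log2 0.86, adjusted p = 0.00167), EIF3D (0.80, adjusted p = 0.000679), EIF3I (0.68, adjusted p = 0.00269) and EIF3G (0.53, adjusted p = 0.0333). Over all features 19.3% were higher and 17.6% lower by edgeR, and 25.6% and 20.7% of those as deep as the members. EIF3B, EIF3G and EIF3I are known to form a module of the complex. By edgeR 0 were lower, with 2 below 0 at an unadjusted p under 0.05, where 4231 of the 19210 features were. DESeq2 gave 4 higher and 1 lower, beside 13.5% and 10.9% of all features. That 1 was EIF3A, the largest scaffold subunit (edgeR log2 -0.51, adjusted p = 0.0646, and 0.0325 with DESeq2). EIF3I had 1398, 5580, 1506 and 3839 counts and EIF3E, the lowest subunit in the shRBM39 cells, 1857, 3362, 1451 and 1979. The remaining subunits, EIF3E, EIF3F, EIF3H, EIF3J, EIF3K, EIF3L and EIF3M, had fitted ratios between -0.35 (EIF3E) and 0.33 (EIF3K) and did not pass.

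In the EIF4 group 6 of 16 members were higher and 3 lower by edgeR, and 5 and 2 by DESeq2. All features gave 19.3% higher and 17.6% lower by edgeR, and 13.5% and 10.9% by DESeq2. Among features as deep as the members the edgeR shares were 25.6% and 20.7%, so the share of lower members was near that of features at large. EIF4A1 rose (log2 0.81, adjusted p = 0.00566), as did EIF4EBP1 (0.48, adjusted p = 0.0241), EIF4G1 (0.70, adjusted p = 0.00894), EIF4H, a cofactor of the helicase (0.55, adjusted p = 0.0292), and EIF4A3, a helicase of the exon junction complex that shares the name (0.70, adjusted p = 0.00191). EIF4ENIF1, which carries eIF4E into the nucleus, also passed by edgeR (adjusted p = 0.0255) but not by DESeq2 (adjusted p = 0.0715). EIF4EBP2 fell most (-1.71, adjusted p = 3.87e-07), followed by EIF4E3 (-1.07, adjusted p = 0.00217). The pseudogene EIF4BP3 passed as lower (-0.92, adjusted p = 0.0249) but not by DESeq2 (adjusted p = 0.126). The major cap-binding mRNA EIF4E (-0.19, adjusted p = 0.358), EIF4E2 (-0.11), the helicase cofactor EIF4B (-0.31), the scaffolds EIF4G2 (0.15) and EIF4G3 (0.01), the helicase paralog EIF4A2 (0.06) and the pseudogene EIF4BP6 (0.02) did not pass.

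Outside these groups EIF6, which keeps the large ribosomal subunit free (log2 0.86, adjusted p = 0.000168 by edgeR), and EIF5A, which helps peptide bond formation (0.64, adjusted p = 0.00939), rose. EIF5A2 (-0.81, adjusted p = 0.0032) and EIF5B (-0.73, adjusted p = 0.0109) fell, and EIF1B passed as higher by edgeR (adjusted p = 0.0214) but not by DESeq2 (adjusted p = 0.0945). The fitted EIF5B value lies between unlike ratios, -1.31 in shControl cells and -0.15 in the shRBM39 cells. EIF1 (-0.09), EIF1AX (0.22), EIF1AD (0.14) and EIF5, which triggers GTP hydrolysis by eIF2 (-0.24), did not pass. EIF6 had 649, 2704, 785 and 2484 counts, or 30.1, 59.8, 36.1 and 60.0 CPM. Both of its IPs were well above both inputs.

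Several paralogs differed in recovery, in pairs chosen after the values were seen and given as description. EIF4EBP1 and EIF4EBP2, both repressors of eIF4E, lay 5.41 times apart in shControl cells, EIF4EBP1 at 0.48 and EIF4EBP2 at -1.95 (difference 2.44, 2.35 to 2.53 by counting error). In the shRBM39 cells they lay 3.84 times apart. EIF4EBP1 had 3412, 10013, 2366 and 6239 counts, or 158, 221, 109 and 151 CPM. EIF5A stood 3.61 times above EIF5A2 in shControl cells and 2.04 times in the other culture. EIF4A1 stood 2.03 times above EIF4A2 in shControl cells and 1.40 times in the other, EIF4A2 being the copy with the pyrimidine start shown above. EIF4G1 stood 1.73 and 1.5 times above EIF4G3 in the control and the other culture.

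**Figure D2:**
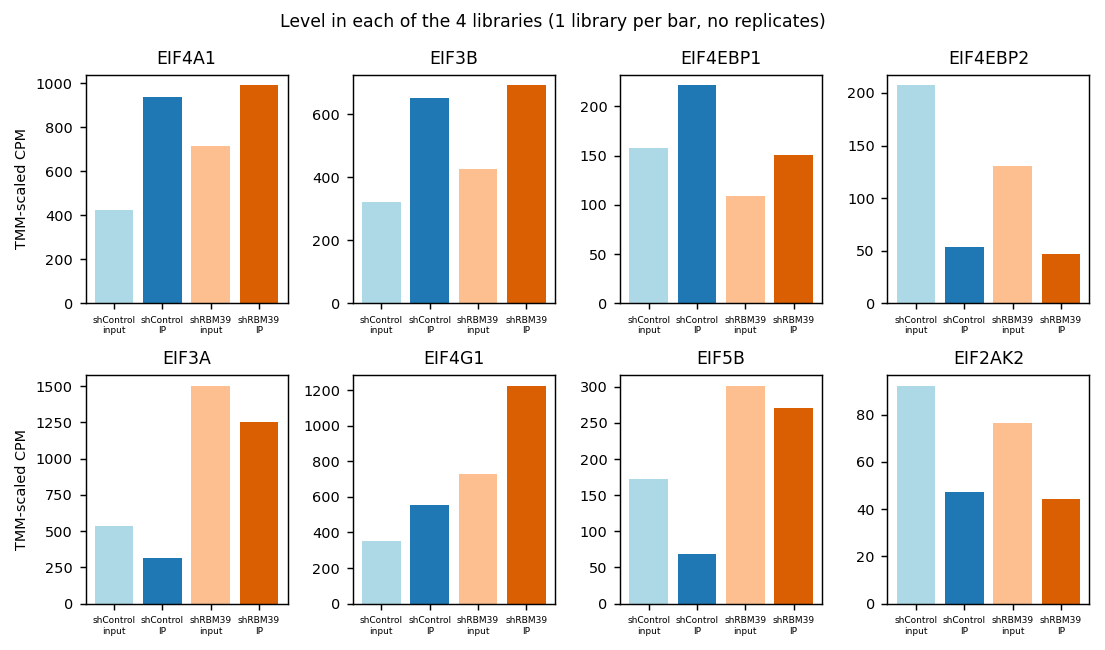
TMM-scaled CPM (vertical axis, from 0) of 8 members in the 4 libraries, 1 library per bar. EIF4EBP2 and EIF2AK2 are lower in both IPs than in both inputs, EIF4A1 and EIF3B higher, and EIF3A, EIF4G1 and EIF5B are higher in both shRBM39 libraries than in both shControl libraries.

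As groups, the EIF2, EIF3 and EIF4 members had median log2 ratios of 0.25, 0.21 and -0.06 in shControl cells and 0.13, 0.23 and 0.22 in the shRBM39 cells. The medians of all features were -0.01 and 0.02. Without its pseudogenes the EIF4 median in shControl cells was 0.07. The spread inside each group was larger than these distances. EIF2 members ran from -0.97 to 0.84 in shControl cells, EIF3 members from -0.76 to 1.02 and EIF4 members from -1.95 to 1.15. Scaling to total counts shifted all features by 0.08 in shControl cells and by -0.11 in the other culture, which put the EIF4 median in shControl cells at 0.02. Relative to the median of all features it was -0.06 under every scaling, which had to be so, since a scaling shifts all features alike. The 9 members with a pyrimidine start had medians of 0.23 and 0.00 in the shControl and shRBM39 cells, against 0.32 and 0.22 for the 32 without one, and none of the 9 was listed in either. Their ratios ran from -0.60 (EIF4B) to 0.87 (EIF3D) in shControl cells.

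**Figure D3:**
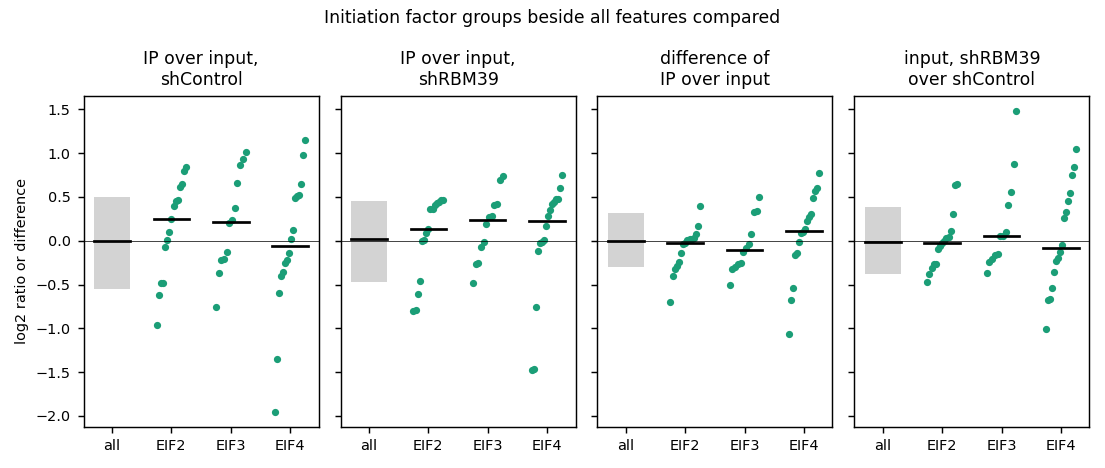
Log2 ratio or difference of log2 ratios (vertical axis) in 4 comparisons, with each point a member, black lines for medians and grey bars for the middle 50% of all 19210 features compared. The members of each group spread on both sides of 0, with medians from -0.11 to 0.25.

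The inputs were compared next, to show what the culture labelled shRBM39 held before the IP. EIF3A and EIF4G1 were listed as higher there and EIF4E3 and EIF5A2 as lower, 2 members each way, where 5.10% of all features were higher and 5.74% lower. Among features as deep as the members the shares were 3.44% and 1.36%. EIF3A (chromosome 10, 119033670 to 119080817) had 11587, 14353, 32719 and 51929 counts, or 537, 317, 1503 and 1253 CPM. Its input level was 2.80 times that of shControl (log2 1.48, 1.45 to 1.51). EIF4G1 (chromosome 3, 184314606 to 184335358) had 7647, 25119, 15907 and 50762 counts, or 355, 555, 731 and 1225 CPM, and was 2.06 times higher in the shRBM39 input (log2 1.04, 1.0 to 1.08). In both mRNAs the 2 shRBM39 libraries were above the 2 shControl libraries.

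EIF3D (log2 0.87, 0.79 to 0.96), EIF4A3 (0.84), EIF5B (0.81) and EIF4A1 (0.75) were next in the inputs, below 2-fold. EIF3D had 1880, 7199, 3478 and 11063 counts, with each IP above its own input. At the other end EIF4E3 stood at -1.01 (-1.41 to -0.63) and EIF5A2 at -1.0 (-1.29 to -0.73), followed by EIF4BP6 and EIF4EBP2, both at -0.67. EIF3C, a core eIF3 subunit that missed the count minimum by 1 count, had 49, 112, 142 and 378 counts and an input ratio of 1.51 (1.04 to 2.02). Its near-identical copy EIF3CL had 8, 2, 8 and 17 counts, so how the counting assigned reads of the 2 copies is uncertain. With 5 counts added before the ratio EIF4E3 (-0.97) and EIF5A2 (-0.98) were no longer listed, and with total counts (0.96) or upper-quartile scaling (0.98) EIF4G1 was not.

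The change of recovery between the cultures is the difference of the log2 ratios, shRBM39 minus shControl. It is built from the same 4 libraries as the comparisons above, so it is not separate evidence. EIF5B was the 1 member listed as higher and EIF4BP3 the 1 listed as lower, where 4.39% of all features were higher and 2.74% lower. Among features as deep as the members the shares were 1.40% and 0.78%. EIF5B had 3713, 3131, 6566 and 11228 counts, or 172, 69.2, 302 and 271 CPM. The shControl IP was the low library, and the difference was 1.16 (1.08 to 1.24), from a ratio of -1.31 in shControl cells to -0.15 in the others. With total counts it was 0.97 and below the 2-fold limit. The feature overlaps REV1 in RefSeq, and its reads near that end cannot be assigned with certainty.

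Below EIF5B came EIF4BP6 (0.77, 0.21 to 1.34, on 60 to 156 counts), EIF4E3 (0.60, 0.07 to 1.13) and EIF4B (0.56, 0.53 to 0.60). EIF4B had 21021, 29170, 18114 and 33719 counts, or 975, 645, 832 and 814 CPM, so that the shControl IP was again the lowest library. EIF3A (0.50, 0.46 to 0.54) also had a higher ratio in the shRBM39 cells, -0.26 against -0.76. At the other end, after EIF4BP3 (-1.07, -1.72 to -0.41), were EIF2AK3 (-0.70, -0.83 to -0.57) and EIF4A1 (-0.67, -0.72 to -0.63). EIF2AK3 had 1373, 4983, 1430 and 2900 counts, so its inputs lay close together (log2 0.05, -0.06 to 0.15) and its shRBM39 IP lower. For EIF4A1 the 2 IPs lay at 939 and 991 CPM and the shRBM39 input was higher, so its lower ratio came with a higher input.

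Group medians of this difference were -0.02 for the EIF2, -0.11 for the EIF3 and 0.12 for the EIF4 members, against 0.00 over all features. Total counts shifted all features by -0.19 here and the EIF4 median with them to -0.08. Relative to all features the EIF4 median was 0.12 under every scaling, which follows from the common shift. For the inputs the medians were -0.02, 0.06 and -0.09. Total counts and upper-quartile scaling shifted all features by -0.08 and -0.06, so the EIF3 median went to -0.02 and -0.0051. Relative to all features the EIF3 median was 0.07 under every scaling, again by the common shift.

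**Figure D4:**
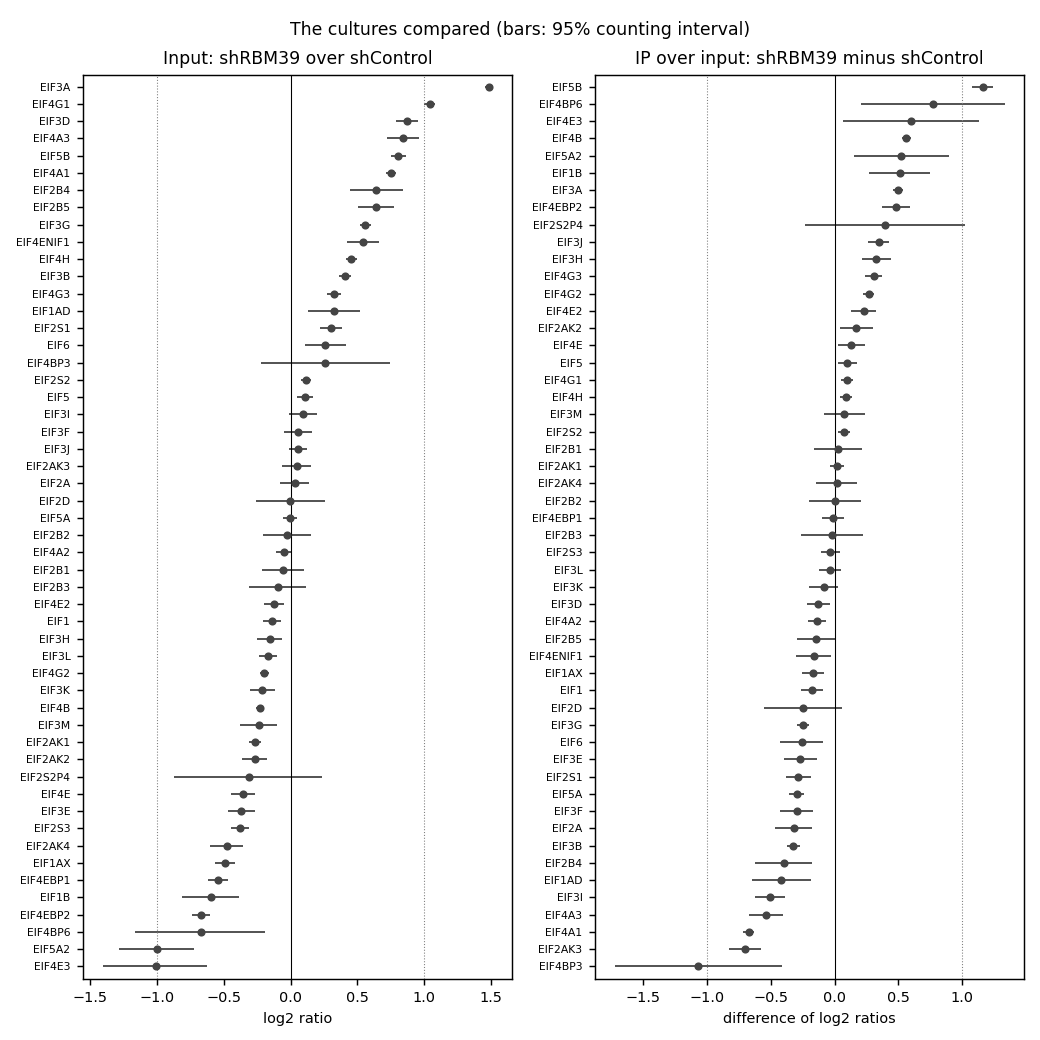
Left, log2 ratio of the inputs, shRBM39 over shControl; right, difference of the log2 IP-over-input ratios, shRBM39 minus shControl, for the 52 members ordered by value, with bars for the 95% counting interval and dotted lines at 2-fold. EIF3A (1.48) and EIF4G1 (1.04) lead the inputs, and EIF5B (1.16) leads the difference.

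Other genes of translation and its control gave the surroundings of these values. Of 47 such genes, 46 were compared, covering elongation, termination, poly(A) binding, initiation cofactors, mTORC1 and MAPK signalling and the integrated stress response. In edgeR's test 12 of 46 were higher in the IP and 5 lower, beside 19.3% and 17.6% of all features and 25.6% and 20.7% of those as deep as the members. By DESeq2 11 were higher and 4 lower, beside 13.5% and 10.9% of all features, 2980 of which had no adjusted p and could not be called. The elongation list, which includes a kinase of EEF2, held 4 of the 12, of 8 measured: EEF1A2, EEF1D, EEF2 and the kinase EEF2K. By edgeR 0 of the 8 were lower, and by DESeq2 1 was, EEF1B2 (adjusted p = 0.0444). Ratios below 0 were seen for 4 of the 8 in shControl cells, with EEF1A1 lowest at -0.67, and for 2 in the shRBM39 cells. The listed ones in shControl cells were all higher in the IP, and the first 4 were the stress genes TRIB3 (log2 1.26) and SESN2 (1.24), the elongation factor EEF1A2 (1.23) and the mTORC1 subunit RPTOR (1.15), of 5 in all, where 7.70% of all features were higher and 11.3% lower. In the shRBM39 cells and in the difference 0 of the 46 were listed. Between the inputs ABCF1, an ATP-binding partner of eIF2, was higher (1.15) and PAIP2B, an inhibitor of poly(A)-binding protein, lower (-1.15), where 5.10% of all features were higher and 5.74% lower.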

How the data were processed

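The authors deposited raw counts per gene symbol for 4 libraries, not normalized; all 4 columns were matched to samples by name. The submitters' processing notes name cutadapt 1.9 and the aligner HISAT2 2.0.4, with StringTie 1.3.4d, on hg38. What each did, what counted the reads, whether strand was used, and from which annotation, is not given in the sources used here. Of counts from 3 to 6, 71.4% to 75.6% were even, so mates of a pair may have been counted singly and counting intervals may be too narrow. Intervals cover counting error only, since reads are not independent molecules.

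Kept for comparison were features that reached 10 counts in 2 or more libraries. TMM scaling (edgeR 4.0.16, R 4.3.3) gave factors of 1.03, 1.09, 0.979 and 0.904 for the shControl input and IP and the shRBM39 input and IP. Ratios used 0.5 added counts and exact conditional (Clopper-Pearson) 95% intervals; the interval of the difference came from the counting standard error. A member is listed at 2-fold or more with the interval excluding equality. DESeq2 1.42.0 was the other test. Both steps were run on simulated counts with known ratios. The counts for the ratios held counting noise alone, and those for edgeR's test a fixed noise level and the same change in both cultures. Those settings are simpler than these data, so the runs do not show how the steps behave on them. Alternatives were 3 other scalings, no filter, 5 added counts, halved counts, a 1.5-fold limit and a member minimum of 200 counts.

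Members and gene lists were chosen with earlier results of these data known. Named were the 3 highest and lowest members of each comparison, the extremes of each group, listed members, members with near-identical copies and up to 4 listed genes of the other translation genes. Paralog pairs, elongation factors and other genes named by role were chosen after their values were seen. Gene positions and starts are from RefSeq on GRCh38.p14, whose primary assembly hg38 names; all 52 members matched by symbol.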

Additional observations from a re-analysis of the deposited data

Results flagged for a closer look

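EIF4G3, a scaffold related to eIF4G1, and EIF3H, an eIF3 subunit, had IP-over-input ratios of opposite sign in the 2 cultures, with counting intervals that excluded 0 on both sides. EIF4G3 stood at -0.14 (-0.19 to -0.09) in shControl cells and 0.16 (0.12 to 0.21) in the culture labelled shRBM39, a difference of 0.31. EIF3H stood at -0.13 (-0.21 to -0.05) and 0.19 (0.11 to 0.28), a difference of 0.33. Over all 19210 features the quartiles of this difference were -0.30 and 0.31, so a difference of this size is common. The share of all features with such opposite signs was not counted. Each culture has 1 pair of libraries, so the difference was not tested. Scaling to total counts lowers every such difference by 0.19, as it shifts all ratios by 0.08 in shControl cells and by -0.11 in the other culture. The EIF3H intervals then no longer exclude 0, while those of EIF4G3 still do.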

How the results depend on the processing

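Each group has 1 library, so counting intervals leave out the spread between cultures, and the edgeR test rests on 1 residual degree of freedom. No IP with a control antibody was analysed, so a ratio can hold recovery that does not depend on RBM39. The edgeR test pairs each IP with the input of its own culture. No pairing by replicate number was possible, since the labels give none. Leaving out a library was not run, since it leaves no residual degree of freedom.

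Counts of listed members moved with scaling and threshold. Total counts gave 5 higher members in shControl cells instead of 2, 0 higher in the difference instead of 1, 1 higher between inputs instead of 2 and 10 higher in the edgeR test instead of 19. Over all features the same counts were 1876 instead of 1479, 570 instead of 843, 768 instead of 979 and 2850 instead of 3698. Upper-quartile scaling gave 1 higher in shControl cells and 1 between inputs, beside 1255 and 828 of all features. No filter gave 5 higher in shControl cells and 0 lower between inputs, beside 2088 and 1447 features of a larger set. With 5 added counts 0 members and 923 of all features were lower between inputs. The EIF4 median minus that of all features then moved from -0.06 to 0.0026 in shControl and from 0.20 to 0.25 in shRBM39 cells. A 1.5-fold limit listed 13 higher and 8 lower with the control hairpin, 6 and 6 with the RBM39 hairpin, 3 and 3 in the difference and 8 and 5 between inputs. Of all 19210 features that limit listed, in the same order, 3630 and 3953, 2977 and 3350, 1527 and 1312, and 2440 and 2295. With members of at least 200 counts (47), 2 were lower in shControl cells, 1 in shRBM39 cells, 0 in the difference and 0 between inputs, and the EIF4 medians were 0.13 and 0.26. The EIF4 medians in this paragraph are relative to all features. By DESeq2, which gave 2980 features no adjusted p, 2097 features in all were lower in the IP, against 3381 by edgeR. DESeq2 size factors and halved counts changed no member's listing in the 4 comparisons. No listed or called member changed sign under any alternative.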

Other observations

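Over the 49 protein-coding members, IP over input was lower for members with a longer gene span in RefSeq, with a Spearman rho of -0.48 in shControl cells and -0.44 in the culture labelled shRBM39. Over the 12884 protein-coding features matched to RefSeq, rho was -0.23 and -0.22. The points share libraries and the span includes introns, so this is a description across genes, which are not independent replicates. EIF4EBP3, the third repressor of eIF4E and too low for the member rule, had 11, 58, 40 and 72 counts in the shControl input and IP and the shRBM39 input and IP.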
